A study of Mus musculus with 9 samples.

Results

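The death-associated protein kinases (DAPK) are serine/threonine kinases best known for roles in cell death, autophagy and contraction of the actin and myosin cytoskeleton. DAPK1 and DAPK2 are switched on when calcium-loaded calmodulin binds an inhibitory segment beside the kinase domain. DAPK3, also called ZIP kinase, lacks that segment, pairs through a leucine zipper and phosphorylates the myosin light chain and the targeting subunit of myosin phosphatase. STK17B, or DRAK2, is a more distant relative with a similar kinase domain, best studied in lymphocytes.

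The 4 mouse genes of the family taken here, Dapk1, Dapk2, Dapk3 and Stk17b, are 4 of the 27179 genes in the count table, and all 4 were among the 17344 genes with enough counts to be tested. The family was chosen by the measured changes of Dapk3 in these same samples, which rank among the largest of all genes. The changes of Dapk3 are therefore given as values with standard errors (SE) and no test. The other 3 kinases are given with a false discovery rate (FDR) over all genes tested, but they were picked with earlier results of these data known and are not independent evidence.

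RNA was sequenced from tissue punches of the paraventricular nucleus (PVN) of the hypothalamus, taken from 9 wild type male C57BL/6 mice (C57BL/6J in the paper's methods), with 1 library per mouse. Control mice (n = 3) ate chow with 16% of calories from fat. HFD mice (n = 3) ate a high-fat diet with 60% of calories from fat for 12 weeks, and HFD+Mino mice (n = 3) ate the same diet with minocycline, an antibiotic of the tetracycline class with anti-inflammatory action, given at 40 mg/kg/day during the second 6 of those weeks. The age given in the labels is postnatal day 35, which is the age of 5 weeks at which the diets began. A punch holds neurons, glia and vessels, so fewer cells of a type and less RNA per cell cannot be told apart. Total counts per library ran from 17728590 to 42326213, and levels are given as CPM, the count scaled to a common library size, on totals scaled by the TMM method, as the mean ± SD of 3 mice unless stated otherwise.

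One library went against its tissue label. Control replicate 1 held 0.149 CPM of Avp, 0.770 CPM of Oxt, 0.770 CPM of Sim1 and no count of Otp (3 counts in this library would be 0.0745 CPM), which are defining genes of PVN neurons, whereas the other 8 libraries held 157 to 28049 CPM of Avp and 427 to 8907 CPM of Oxt. Trh was 5.49 CPM there against 260 to 852 CPM elsewhere, but Crh, at 20.6 CPM, lay inside the 14.4 to 153 CPM of the others. Otp was low in every library, at most 2.77 CPM. Over all 6 PVN neuron markers the sum of Control replicate 1 was 27.8 CPM, mostly Crh, against 932 to 37726 CPM elsewhere. Its 5 oligodendrocyte markers summed to 28571 CPM, against 2181 to 6726 CPM in the others. HFD+Mino replicates 1 and 2 stood apart in another way, with PVN marker sums of 37726 and 31917 CPM against 3104 CPM in HFD+Mino replicate 3. Those sums were mostly Avp and Oxt, and Otp did not follow, at 0.616 and 0.371 CPM against 0.519 CPM. The main results below that rest on Control replicate 1 are given with and without it.

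**Figure D1:**
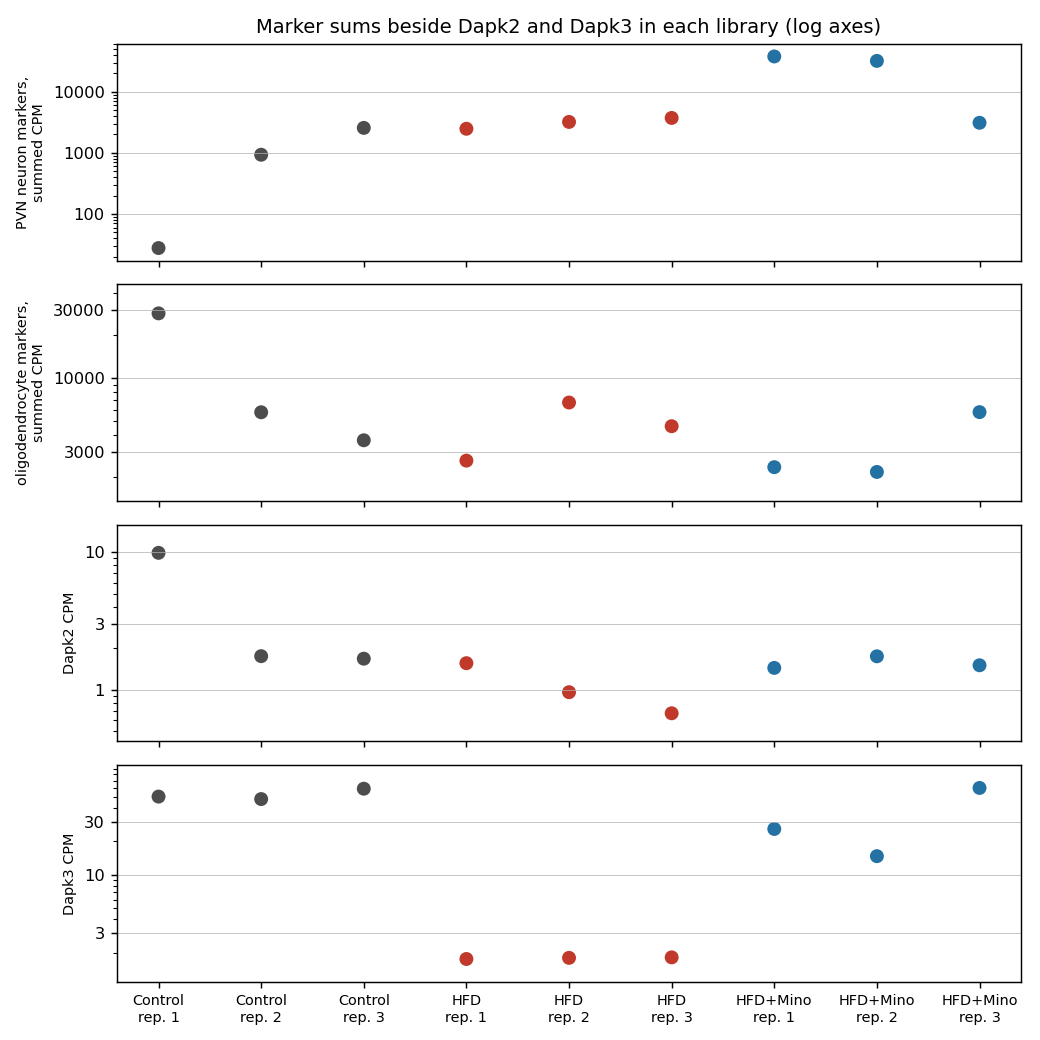
Summed CPM of the PVN neuron markers and the oligodendrocyte markers, and CPM of Dapk2 and Dapk3, in each of the 9 libraries on log axes (1 point per library). Control replicate 1 has the lowest PVN sum (27.8), the highest oligodendrocyte sum (28571) and the highest Dapk2 level (9.89 CPM), while its Dapk3 level (50.4 CPM) lies with the other Control libraries.

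The 4 genes lie on different chromosomes. In GRCm38 (mm10), Dapk1 occupies chr13:60601723-60763191 on the plus strand, with 9012 nt of exon in all and a longest coding sequence of 4326 nt. Dapk2 lies at chr9:66158226-66272242 (plus strand, 3512 nt of exon, 1110 nt coding). Dapk3 is compact, at chr10:81182987-81193197 (plus strand, 2532 nt of exon, 1344 nt coding). Stk17b lies at chr1:53755512-53785237 on the minus strand, with 5185 nt of exon and 1116 nt coding. Coding sequences of the 3 DAPK genes were 73.5% to 76.2% identical over the 819 to 886 nt that aligned, and Stk17b was 60.0% to 62.1% identical to them.

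The stretch where the 4 coding sequences are most alike is shown because paralogs this close could exchange reads. It is 60 nt of the kinase domain coding region from GENCODE M21 transcripts on GRCm38, 5′ to 3′ along the RNA, and capitals mark the 34 bases that are the same in all 4 genes. Each stretch crosses an exon junction, so the genome span includes an intron. For Dapk1 it spans chr13:60718307-60718452 (exons 6 and 7 of 27), for Dapk2 chr9:66250342-66251090 (exons 6 and 7 of 12), for Dapk3 chr10:81190603-81191057 (exons 5 and 6 of 9) and for Stk17b chr1:53761146-53762632 (exons 6 and 7 of 8).
Dapk1: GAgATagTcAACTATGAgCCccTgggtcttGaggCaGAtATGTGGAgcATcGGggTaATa
Dapk2: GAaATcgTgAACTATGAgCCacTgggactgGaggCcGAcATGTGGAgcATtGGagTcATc
Dapk3: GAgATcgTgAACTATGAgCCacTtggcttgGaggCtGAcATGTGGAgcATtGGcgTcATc
Stk17b: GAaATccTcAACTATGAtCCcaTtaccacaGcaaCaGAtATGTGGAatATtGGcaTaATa
Dapk3 shares 54 of these 60 bases with Dapk2, 47 with Dapk1 and 39 with Stk17b. Even so, 0 of the 50-base words of the transcripts of any of the 4 genes occurred in another, and the longest run shared by 2 coding sequences was 23 nt (Dapk2 and Dapk3), so reads of 50 bases can tell these genes apart. Dapk3 shares 74 of its 2572 words (2.88%) with 4930442H23Rik, a gene on the opposite strand that overlaps 212 nt of its exons. Whether reads were counted by strand is not given in the sources used here, so that part of the Dapk3 count is uncertain.

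Dapk3 was among the better expressed of the 4 kinases in Control punches, was lower by more than an order of magnitude in HFD punches, and in HFD+Mino punches lay between the HFD level and the Control level or at the latter. Its level was 50.4, 47.9 and 59.3 CPM in Control replicates 1 to 3, and 1.76, 1.80 and 1.82 CPM in HFD replicates 1 to 3. In HFD+Mino replicates 1 to 3 it was 25.8, 14.7 and 60.3 CPM. The HFD values lie far under all 6 others and rest on 35, 62 and 73 counts, while the HFD+Mino mice spread over a 4.10-fold range that reaches the highest value of all 9 mice.

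**Figure D2:**
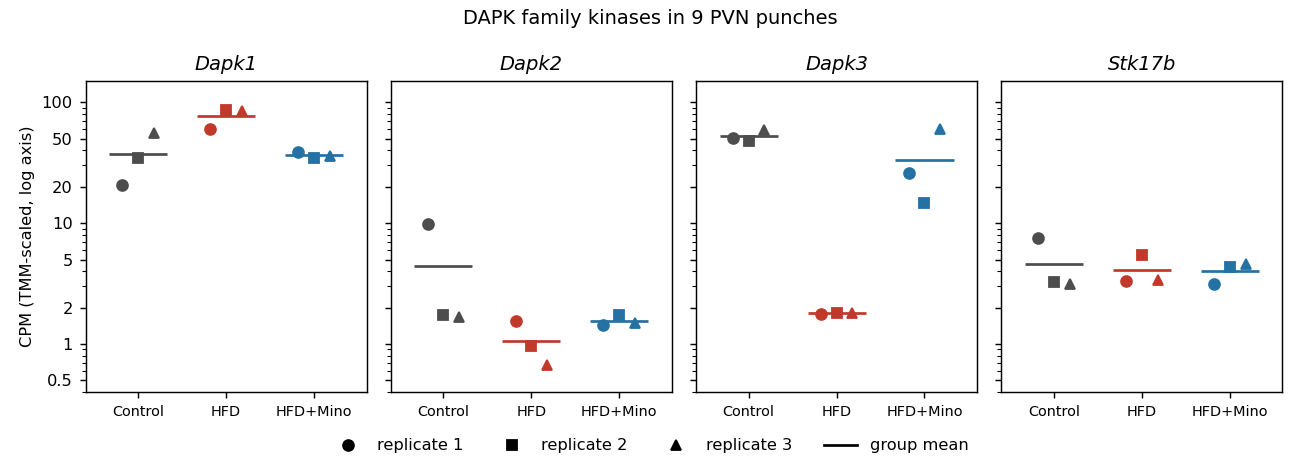
CPM of the 4 kinases on a log axis; each symbol is 1 mouse and each line a group mean (n = 3 per group). Dapk3 has a mean of 1.79 CPM in HFD, Dapk1 a mean of 77.3 CPM there, and for Dapk2 and Stk17b Control replicate 1 sits above all other libraries.

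The fitted log2 difference of Dapk3 was -4.87 ± 0.48 (SE) between HFD and Control, a ratio of group means of 29.3 in the direction of Control, and 4.23 ± 0.47 between HFD+Mino and HFD, a ratio of 18.8. Between HFD+Mino and Control it was -0.64 ± 0.40. Without Control replicate 1 the first difference was -4.90. HFD+Mino replicate 3 lay nearest to Control, and without it the difference was -1.38 ± 0.28. The mice with the lower HFD+Mino levels of Dapk3 are replicates 1 and 2, the libraries with the highest Avp (28049 and 22180 CPM against 1218 CPM in replicate 3) and with blood cell marker sums of 88.8 and 79.6 CPM against 14.5 CPM, and the part of tissue makeup in that difference was not tested. The blood sums were mostly the hemoglobin genes Hba-a1 and Hbb-bs, while Ptprc was 1.06, 5.76 and 2.02 CPM in HFD+Mino replicates 1 to 3.

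A gene was called when its FDR was under 0.01 and it differed at least 1.5-fold. Between HFD and Control 1.74% of all genes tested were called, and between HFD+Mino and HFD 4.15%. The 3-way test asks for a difference among the groups, with HFD the highest or lowest group and 1.5-fold or more away from their mean. In it 2.13% of all genes were called, and HFD lay -3.03 ± 0.31 (log2, SE) from that mean for Dapk3. Between HFD+Mino and Control 0 of 17344 genes were called (0.0%) in edgeR's quasi-likelihood test, while 3697 genes had an unadjusted p under 0.05 and DESeq2 called 271. When Control and HFD+Mino samples of the same number were treated as pairs (a replicate block), the counts of genes called rose from 302 to 1078 between HFD and Control, from 719 to 4441 between HFD+Mino and HFD, from 0 to 551 between HFD+Mino and Control and from 369 to 2283 in the 3-way test. Dapk1, Dapk2 and Stk17b, described next, were not called in any of these tests with edgeR's quasi-likelihood test, with or without the block, although 6 of their 12 tests without it had an unadjusted p under 0.05. Of all 17344 genes tested, 3554 had such a p between HFD and Control and 7171 between HFD+Mino and HFD. In the 3-way test 6762 did.

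Dapk1, the large family member with ankyrin repeats and a death domain, was measured in the opposite direction to Dapk3. Its level was 20.6, 34.9 and 56.1 CPM in Control, 60.7, 86.1 and 85.0 CPM in HFD, and 38.5, 34.8 and 36.0 CPM in HFD+Mino (replicates 1 to 3). Every HFD value lies above the 6 other values, which holds in either direction for 23.0% of all genes tested. HFD and Control did not overlap for 35.7% of all genes, HFD+Mino and HFD for 46.7%, and HFD+Mino and Control for 19.1%. For Dapk1 the HFD+Mino values lie inside the range of Control.

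The mean of Dapk1 was 77.3 ± 14.4 CPM in HFD, 37.2 ± 17.9 CPM in Control and 36.4 ± 1.89 CPM in HFD+Mino. The log2 difference between HFD and Control was 1.06 ± 0.32 (SE, edgeR FDR 0.0856) and did not pass the threshold. The difference of HFD+Mino from HFD was -1.09 ± 0.32 (edgeR FDR 0.0308) and in the 3-way test 0.71 ± 0.18 from the mean of the groups (edgeR FDR 0.0407), both short of an FDR of 0.01. DESeq2 placed both past the threshold, with adjusted p of 0.00864 and 0.00630, and so did edgeR's likelihood ratio test, with FDRs of 0.00940 and 0.00625. Between HFD+Mino and Control the difference was -0.03 ± 0.32 (edgeR FDR 0.964), and -0.33 without Control replicate 1 (edgeR FDR 0.516).

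The Dapk1 values moved with single libraries and with a correction for transcript length. Control replicate 1 had the lowest Dapk1 level of all 9 mice, and without it the difference between HFD and Control was 0.76 (edgeR FDR 0.239), while that between HFD+Mino and HFD stayed at -1.09 (edgeR FDR 0.0131). Control replicate 3 had the highest Control level, and without it the difference between HFD and Control was 1.48 (edgeR FDR 0.0176). Removing the trend of each sample on exon length, which is 9012 nt for Dapk1, brought the difference between HFD+Mino and HFD from -1.09 to -0.53 (edgeR FDR 0.197) and the 3-way distance from 0.71 to 0.43 (edgeR FDR 0.141). The summed astrocyte markers moved with the HFD group as well, at 2103 to 2290 CPM in HFD, 1577 to 1686 CPM in Control and 1327 to 1526 CPM in HFD+Mino, and their part in the Dapk1 values was not tested. In HFD that sum was mostly Slc1a3 (1295 to 1455 CPM), the 1 of the 5 astrocyte markers whose HFD values all lay above all others, and Gfap and Slc1a2 did not follow it. In HFD the summed microglia and macrophage markers were 226 to 240 CPM, against 160 to 216 CPM in Control and 177 to 223 CPM in HFD+Mino. There Csf1r and Cx3cr1, 2 of the 6 markers, lay above all other samples in HFD, whereas C1qa was 22.9 to 26.5 CPM in HFD and 40.2 to 75.5 CPM in HFD+Mino. Such HFD values were not limited to glia. They were found for 1 of 5 neuron, 1 of 3 oligodendrocyte precursor, 1 of 5 endothelial and mural and 1 of 4 ependymal and choroid plexus markers. No PVN neuron, oligodendrocyte or blood cell marker had them.

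Dapk2, the small calmodulin-regulated relative, was low in all punches but 1. Its level was 9.89, 1.75 and 1.68 CPM in Control, 1.56, 0.957 and 0.672 CPM in HFD, and 1.44, 1.75 and 1.502 CPM in HFD+Mino. The value of 9.89 CPM belongs to Control replicate 1, the library with the lowest sum of PVN neuron markers, and is 5.77 times the mean of the other 2 Control libraries. The other 8 libraries lie between 0.672 and 1.75 CPM on 27 to 62 counts each.

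With all samples the log2 difference of Dapk2 between HFD and Control was -2.08 ± 0.70 (SE, edgeR FDR 0.115). Without Control replicate 1 it was -0.71 ± 0.56 (edgeR FDR 0.689), and that between HFD+Mino and Control went from -1.51 (edgeR FDR 0.228) to -0.14 (edgeR FDR 0.907). For HFD+Mino against HFD it was 0.57 ± 0.68 (edgeR FDR 0.558). All HFD values of Dapk2 lay under all Control values, but HFD and HFD+Mino overlapped and no comparison passed the threshold. The 3-way distance was -0.88 (edgeR FDR 0.0782), and -0.43 without Control replicate 1 (edgeR FDR 0.565).

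Stk17b, encoding a kinase that promotes apoptosis when overexpressed, did not differ detectably between the groups. Its level was 7.50, 3.25 and 3.12 CPM in Control, 3.31, 5.48 and 3.41 CPM in HFD, and 3.15, 4.35 and 4.62 CPM in HFD+Mino. The groups overlapped in every comparison, and the highest value was again that of Control replicate 1, at 2.36 times the mean of the other 2 Control libraries. The log2 difference between HFD and Control was -0.18 ± 0.42 (SE, edgeR FDR 0.843) with that library and 0.35 ± 0.40 (edgeR FDR 0.814) without it. Between HFD+Mino and HFD it was -0.01 ± 0.42 (edgeR FDR 0.986), and between HFD+Mino and Control -0.20 (edgeR FDR 0.806). Without Control replicate 1 the last of these was 0.34 (edgeR FDR 0.651).

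**Figure D3:**
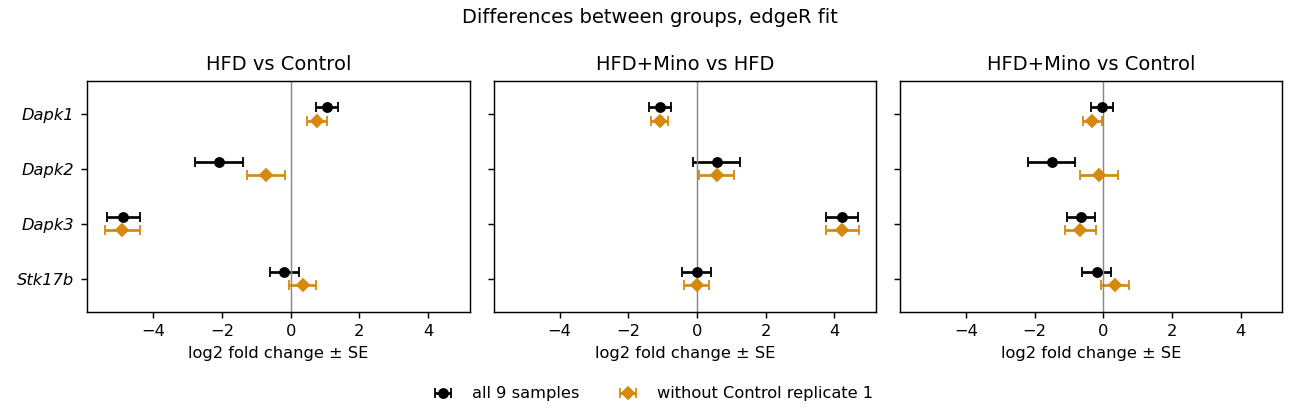
Log2 differences ± SE of the 4 kinases in the 3 comparisons of pairs of groups, from the edgeR fit of all 9 samples (black) and without Control replicate 1 (orange). Dapk3 spans -4.87 and 4.23, Dapk1 1.06 and -1.09, and the Dapk2 value against Control moves from -2.08 to -0.71 when the library is left out.

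Counts grow with transcript length, so levels of different genes were compared per kilobase (kb) of exon. In Control, Dapk3 led with 20.7 ± 2.37 CPM per kb, followed by Dapk1 with 4.13 ± 1.99, Dapk2 with 1.26 ± 1.34 and Stk17b with 0.892 ± 0.481 CPM per kb. Dapk3 lay above each of the others in all 3 Control mice, but the ranges of Dapk1, Dapk2 and Stk17b overlapped their neighbours in that order. The place of Dapk2 above Stk17b came from Control replicate 1, since in Control replicates 2 and 3 Dapk2 had 0.498 and 0.478 CPM per kb and Stk17b 0.626 and 0.602. The overlap of Dapk1 with Dapk2 came from the same library, with 2.28 CPM per kb of Dapk1 and 2.81 of Dapk2. In Control replicates 2 and 3 Dapk1 had 3.87 and 6.23 CPM per kb. In HFD the order was Dapk1 with 8.57 ± 1.59, Stk17b with 0.785 ± 0.236, Dapk3 with 0.707 ± 0.012 and Dapk2 with 0.302 ± 0.128 CPM per kb. Stk17b and Dapk3 were not separated there, because the range of Stk17b included that of Dapk3. In HFD+Mino, Dapk3 led again with 13.3 ± 9.38 CPM per kb, ahead of Dapk1 with 4.04 ± 0.210, Stk17b with 0.779 ± 0.151 and Dapk2 with 0.445 ± 0.046.

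Dapk3 made up 75.3% to 79.1% of the family's RNA per kb in Control, 6.12% to 8.15% in HFD and 52.8% to 81.8% in HFD+Mino. Dapk1 made up 8.63% to 20.3%, 79.1% to 85.8% and 13.7% to 35.1% of it in the same order. The leading member was Dapk3 in all 6 Control and HFD+Mino mice and Dapk1 in the 3 HFD mice. Summed over the 4 genes, the Control level was 27.0 ± 3.45 CPM per kb, the HFD level 10.4 ± 1.64 and the HFD+Mino level 18.5 ± 9.43. These shares describe the samples in which Dapk3 was selected and carry no test.

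**Figure D4:**
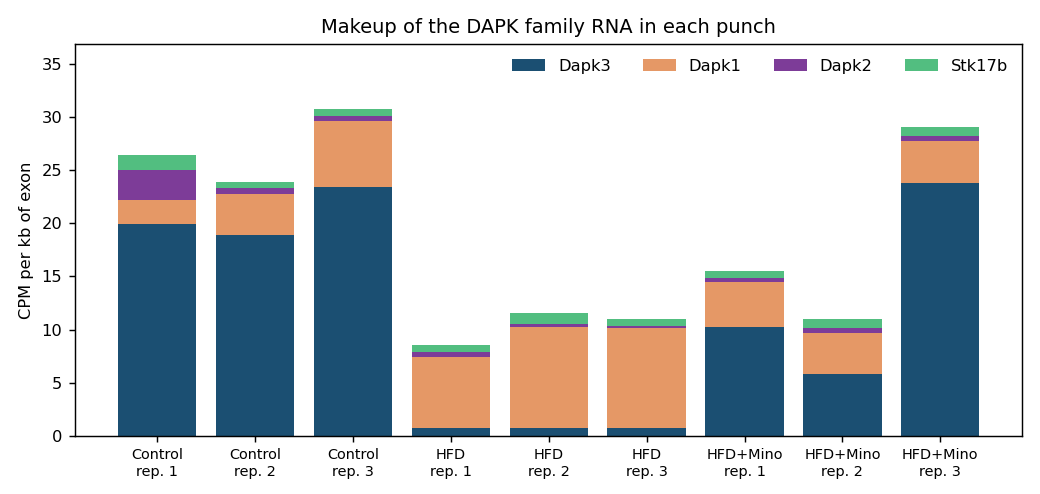
CPM per kb of exon of the 4 kinases, stacked, for each of the 9 mice. The Dapk3 part fills most of each Control bar (75.3% to 79.1%) and little of each HFD bar (6.12% to 8.15%), where Dapk1 fills most; HFD+Mino replicate 3 looks like a Control bar and replicates 1 and 2 lie between.

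Within a library, the ratio of Dapk1 to Dapk3 in CPM was 0.408, 0.729 and 0.946 in Control, 34.5, 47.9 and 46.8 in HFD, and 1.49, 2.36 and 0.597 in HFD+Mino. Control and HFD ranges are far apart, and HFD+Mino replicate 3 falls within the Control range. For the 3 pairs without Dapk3, differences of the log2 ratio (0.5 CPM added to each level) were tested in 3 comparisons, 9 tests in all, with a two-sided exact permutation test that with 3 against 3 mice cannot go below 0.1. The log2 ratio of Dapk1 to Dapk2 was 5.66 ± 0.68 in HFD, 3.23 ± 1.95 in Control and 4.16 ± 0.18 in HFD+Mino (SD, n = 3). The mean difference between HFD and Control was 2.43 (exact permutation p = 0.1, adjusted 0.18) and 1.32 without Control replicate 1, and HFD+Mino was lower than HFD (exact permutation p = 0.1, adjusted 0.18). The log2 ratio of Dapk1 to Stk17b was 4.10 ± 0.31 in HFD, 2.87 ± 1.33 in Control and 3.04 ± 0.33 in HFD+Mino, with differences of 1.24 from Control (exact permutation p = 0.2, adjusted 0.3) and -1.07 for HFD+Mino from HFD (exact permutation p = 0.1, adjusted 0.18). Without Control replicate 1 the first of these was 0.4999. None of these 9 differences could be called at this number of mice.

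Dapk1, Dapk2 and Dapk3 have similarly GC-rich transcripts at their richest stretch, and Stk17b does not. The GC content of the transcripts was 53.2% for Dapk1, 52.8% for Dapk2, 63.3% for Dapk3 and 39.0% for Stk17b. The richest 100 nt of a transcript reached 81% GC in Dapk1, 80% in Dapk2, 82% in Dapk3 and 69% in Stk17b. In Dapk3 that stretch is coding, in exon 9 of 9 at chr10:81192593-81192692 of GRCm38 (plus strand, coding bases 996 to 1095), and it is shown because base composition moved with the comparison over all genes.
Dapk3: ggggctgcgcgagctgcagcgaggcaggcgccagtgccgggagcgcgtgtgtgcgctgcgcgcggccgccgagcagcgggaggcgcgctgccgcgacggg
With a line drawn at 80% GC after the values were seen, 3527 genes tested had a richest 100 nt at or above it, of which 193 were called lower and 19 higher in HFD than in Control. Of the 12096 genes under it, 48 were called lower and 31 higher. Dapk1, on the GC-rich side of that line, was measured higher in HFD and Dapk3 lower. With the trend of each sample on this GC measure removed, the Dapk3 difference between HFD and Control was -4.96, and that of Dapk1 was 0.91 (edgeR FDR 0.0986). The HFD libraries also held 0.350% to 0.430% of their counts on the ribosomal RNA gene Rn45s, against 0.0266% to 0.0438% in Control and 0.0450% to 0.113% in HFD+Mino, and the part of this in the Dapk3 values was not tested. Leaving out Rn45s and mitochondrial genes, the Dapk3 difference was -4.87. That step only takes the counts of those genes out of each library, so it cannot show how the Rn45s share relates to Dapk3.

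The genes whose level over the 9 samples was most like that of Dapk3, by Pearson's r of log2(CPM + 1) among 14760 genes with a mean of at least 1 CPM, were Mgat4b (r = 0.995), Asphd2 (0.995), Ext1 (0.994), Mark3 (0.994) and Wsb2 (0.993). Mark3, a kinase of the microtubule affinity-regulating family, was 66.9 to 83.5 CPM in Control, 8.93 to 11.1 CPM in HFD and 35.8 to 71.8 CPM in HFD+Mino, and as for Dapk3 the highest HFD+Mino value was that of replicate 3. Dapk1 was most like Lpin2 (r = 0.983), Rapgef2 (0.981) and Rims3 (0.980), which encode a phosphatidate phosphatase, an exchange factor for RAP and a presynaptic protein. Dapk2 was most like Il17rb (r = 0.953) and Myoc (0.953), genes that also peaked in Control replicate 1, where Myoc reached 26.7 CPM against at most 0.753 CPM elsewhere. Stk17b was most like Gm10643 (r = 0.927), Cldn11 (0.927) and Hey1 (0.905), and Cldn11, which encodes a claudin of myelin, reached 77.5 CPM in Control replicate 1 and at most 30.7 CPM in HFD. All these r values were the highest of many and describe 9 libraries that share their groups and depth.

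Genes around the kinases were gathered in 4 lists: 16 regulators, 25 substrates and partners, 25 relatives among the calcium/calmodulin kinases and 17 kinases, phosphatase subunits and light chains of myosin, 74 genes in all with 73 tested, some of them in more than 1 list. Between HFD and Control 1 of the 73 was called (1.37%), and between HFD+Mino and HFD 4 were called (5.48%), against 1.74% and 4.15% of all genes. With the replicate block in Control and HFD+Mino the counts were 8 and 21 (11.0% and 28.8%), against 6.22% and 25.6% of all genes. The median log2 difference of the 73 was 0.09 between HFD and Control and -0.20 between HFD+Mino and HFD, against 0.00 and 0.01 over all genes tested.

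None of the 16 regulators and none of the 25 substrates and partners passed the threshold between HFD and Control or between HFD+Mino and HFD in the edgeR quasi-likelihood test, while 4 and 9 regulators and 8 and 12 substrates had an unadjusted p under 0.05 in the 2 comparisons. Over all 17344 genes tested, 3554 and 7171 had an unadjusted p under 0.05 in the same 2 comparisons. Calls appeared under other settings: of 14 alternatives that left out no single sample, 11 called 1 regulator between HFD and Control, and up to 5 regulators and 8 substrates were called between HFD+Mino and HFD. Those alternatives also called more of all 17344 genes, up to 1186 between HFD and Control and up to 4757 between HFD+Mino and HFD. With the replicate block in Control and HFD+Mino the shares of all genes were 6.22% and 25.6%. The median log2 difference between HFD and Control was -0.10 for the regulators and -0.05 for the substrates, and between HFD+Mino and HFD it was -0.12 and 0.24. The following 4 genes were named after their values were seen. Cul3, the scaffold of a ubiquitin ligase that can target DAPK1, had 95.2 ± 11.4 CPM in Control, 23.6 ± 3.14 CPM in HFD and 47.6 ± 26.4 CPM in HFD+Mino, a log2 difference between HFD and Control of -2.01 (edgeR FDR 0.0115). Klhl20, the adaptor of the same ligase, differed by 0.18 (edgeR FDR 0.786). Myl9, a regulatory light chain of myosin that these kinases phosphorylate, had 46.0 ± 16.5 CPM in Control, 23.5 ± 3.52 CPM in HFD and 72.7 ± 40.8 CPM in HFD+Mino (edgeR FDR 0.193 between HFD and Control and 0.0164 between HFD+Mino and HFD). Becn1, encoding the autophagy protein Beclin 1 that DAPK1 can phosphorylate, differed between HFD and Control by -0.35 ± 0.19 (SE, edgeR FDR 0.329).

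Among the 24 calcium/calmodulin kinase relatives tested, 1 rose in HFD against Control, and 2 fell and 1 rose in HFD+Mino against HFD. These calls are 4.17% and 12.5% of the list, against 1.74% and 4.15% of all genes. Camk2a, the alpha subunit of the abundant synaptic kinase CaMKII, was 42.8, 49.5 and 69.2 CPM in Control, 234, 226 and 230 CPM in HFD, and 62.9, 27.6 and 84.5 CPM in HFD+Mino. The HFD values of Camk2a lie close together and far above all others, and it rose by 2.09 ± 0.36 on the log2 scale in HFD (SE, edgeR FDR 0.00734) and differed by -1.98 ± 0.36 between HFD+Mino and HFD (edgeR FDR 0.00760). Dclk1, a doublecortin-like kinase of microtubules, fell in HFD+Mino from 299 ± 32.2 to 128 ± 13.1 CPM (log2 difference -1.23, edgeR FDR 0.00716). Phkg2, a catalytic subunit of phosphorylase kinase, rose from 20.6 ± 0.700 CPM in HFD to 46.7 ± 6.79 CPM in HFD+Mino (log2 difference 1.18, edgeR FDR 0.00939).

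Among the 16 myosin genes tested, none was called between HFD and Control and 1 between HFD+Mino and HFD (6.25%, against 4.15% of all genes). Ppp1r12b, a targeting subunit of myosin phosphatase, was 5.59 to 8.07 CPM in Control, 15.2 to 17.1 CPM in HFD and 3.66 to 6.09 CPM in HFD+Mino, and fell by 1.77 on the log2 scale in HFD+Mino against HFD (edgeR FDR 0.00548). Its relative Ppp1r12c, named after its values were seen, was measured the other way, with 57.0 ± 15.2 CPM in Control, 16.1 ± 3.37 CPM in HFD and 42.8 ± 20.9 CPM in HFD+Mino (log2 difference between HFD and Control -1.82, edgeR FDR 0.0124). In the 3-way test Camk2a and Ppp1r12b were called HFD-higher, 2 of the 73 genes against 2.13% of all genes.

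These counts rest on few libraries. The single call between HFD and Control was lost without any 1 of the 3 Control or the 3 HFD libraries. The 4 calls between HFD+Mino and HFD went to 0 without Control replicate 2, HFD+Mino replicate 1 or any 1 HFD library, to 1 without HFD+Mino replicate 2, to 7 without Control replicate 3 and to 20 without HFD+Mino replicate 3. Between HFD and Control, 4 list genes were called without HFD+Mino replicate 3 and 2 without HFD+Mino replicate 2. Counts over all genes tested moved too. Between HFD+Mino and HFD 719 genes were called with all samples and 3815 of 17836 without HFD+Mino replicate 3. Without HFD+Mino replicate 2 that count was 338, and without Control replicate 3 it was 857. Between HFD and Control it was 302 with all samples, 550 without HFD+Mino replicate 3 and 406 without HFD+Mino replicate 2.

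**Figure D5:**
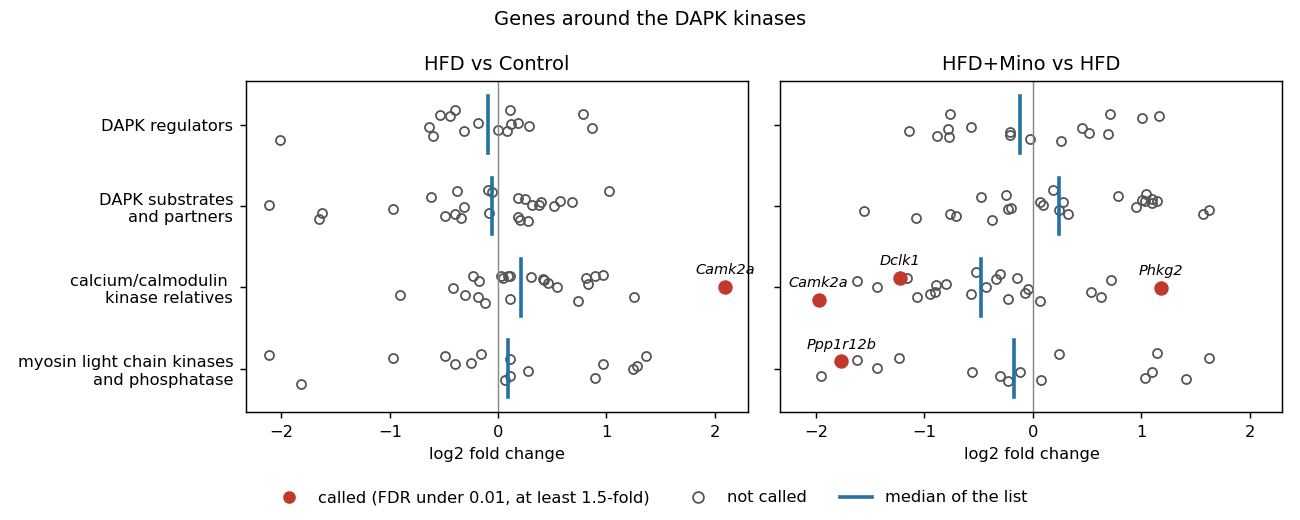
Log2 differences of the genes in the 4 lists (1 point per gene) between HFD and Control and between HFD+Mino and HFD, with called genes filled and named and the list median as a bar. Camk2a is called at 2.09 in the first comparison, and Camk2a, Dclk1, Ppp1r12b and Phkg2 are called at -1.98, -1.23, -1.77 and 1.18 in the second.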

How the data were processed

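PVN punches of 9 mice were measured by bulk RNA sequencing, and samples were grouped by the diet and treatment in their labels. Libraries were made from full-length cDNA amplified from small amounts of RNA, fragmented by a transposase and read for 50 bases from each end. Per the submitters' processing notes and the paper's methods, reads were mapped on mm10 (HISAT2) and summed per gene (featureCounts), and the authors deposited these raw counts for 27179 genes with no normalization. No tool version and no setting for strand or multiple mapping is given in the sources used here, and 0 sample columns were left unused.

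Counts entered edgeR 4.0.16 (R 4.3.3) with filterByExpr, TMM scaling and 1 quasi-likelihood fit of all 9 samples with 1 mean per group, 17344 genes tested, Benjamini-Hochberg FDR over all of them. A gene was called at an FDR under 0.01 and at least 1.5-fold. The paper names edgeR and these thresholds for a 3-way analysis, but not the test. Paralog ratios used an exact permutation test (scipy 1.17.1). Positions, exon lengths and sequences came from GENCODE M21 and RefSeq on GRCm38, and alignments from biopython 1.88. Lists of genes were written from general knowledge. The members, lists and rules were chosen with earlier results of these data known. Named genes are the 4 members, the list genes called between HFD and another group, and the 5 (Dapk3) or 3 (others) genes most alike by Pearson's r, 1 of which is not reported here. Cul3, Klhl20, Myl9, Becn1, Ppp1r12c and the marker genes named in the text fall outside this rule, and their choice followed a look at the values. The code was tested on simulated data.

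Same-numbered Control and HFD+Mino samples deviated together (correlations of deviations 0.135, 0.163 and 0.292), HFD samples numbered by their titles did not. The deposited count columns of the HFD samples carry other numbers than the titles. Which HFD sample shares a number with which other sample, also in the block of all samples, therefore rests on the choice of the titles. No label names a shared litter or day, so this pairing comes from the counts alone. Replicates of a group differed by more than counting noise, and HFD replicates differed least. Chi-square per degree of freedom between 2 replicates was 21.0 to 31.6 in HFD, 94.1 to 299 in Control and 109 to 324 in HFD+Mino. Whether the HFD samples were handled apart from the others is not given in the sources used here and was not tested. An SD is the spread between the mice of a group. An SE comes from the edgeR fit, which pools the spread of all groups and draws on other genes. For Dapk3 between HFD and Control it was 0.48 in the fit of all samples and 0.20 with only the 6 samples compared. The alternatives were DESeq2 1.42.0, edgeR's likelihood ratio test, an FDR under 0.05, RLE size factors, 2 other filters (none, or a mean count of 50 or more), removal of Rn45s and mitochondrial genes, thinned libraries, 2 replicate blocks, models of 6 samples, length and GC trends removed, and each sample left out. The trend on the GC-richest 100 nt was added after seeing the data.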

Additional observations from a re-analysis of the deposited data

How the results depend on the processing

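Of the 564 values recomputed under an alternative, 448 were labelled the same, 84 moved, 26 reversed and 6 stronger. The label of the same had 3 meanings. Tested differences kept their direction and side of the threshold, Dapk3 differences stayed within the spread, and counts of genes called stayed within 1.5-fold. Paralog ratios were among the tested differences, although their side of the threshold could not change. With 3 mice per group the exact tests of paralog ratios could not pass 0.05 under any setting. Dapk1 passed the threshold between HFD+Mino and HFD with DESeq2 (-1.07), the likelihood ratio test (-1.09) and an FDR under 0.05 (-1.09), and in the 3-way test with the same settings (0.71 in each). The Dapk3 difference between HFD and Control was -4.71 with the length trend and -4.68 with the GC trend removed. Differences near 0 changed sign. For Dapk1 between HFD+Mino and Control they were 0.074 and 0.081 with the replicate block in all samples and in Control and HFD+Mino, 0.23, 0.013 and 0.18 with the trend on length, GC and the GC-richest 100 nt removed. For Stk17b between HFD+Mino and HFD they were 0.0023 without a filter, 0.0022 with a mean count of at least 50, 0.0084 with thinned libraries, 0.012 and 0.030 with the 2 replicate blocks, 0.33, 0.16 and 0.017 with the 3 trends removed, and between HFD+Mino and Control 0.0090 with the length trend removed. Leaving out 1 sample gave ranges of 0.76 to 1.48 for Dapk1 between HFD and Control, -0.33 to 0.39 for Dapk1 between HFD+Mino and Control, 3.495 to 4.59 for Dapk3 between HFD+Mino and HFD, -1.38 to -0.29 for Dapk3 between HFD+Mino and Control, and, for Stk17b, -0.47 to 0.35 between HFD and Control, -0.14 to 0.27 between HFD+Mino and HFD, -0.42 to 0.34 between HFD+Mino and Control and -0.24 to 0.12 in the 3-way test. The log2 ratios between HFD and Control ranged from 1.32 to 3.16 for Dapk1 to Dapk2 and from 0.4999 to 1.79 for Dapk1 to Stk17b, lowest without Control replicate 1 in both. Those between HFD+Mino and Control ranged from -0.17 to 1.67 for Dapk1 to Dapk2 and from -0.57 to 0.72 for Dapk1 to Stk17b. The cause of these shifts was not tested.

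Genes called in HFD vs Control, HFD+Mino vs HFD and the 3-way test numbered 1001, 4757 and 2258 at an FDR under 0.05, 1186, 3878 and 2342 with DESeq2, 966, 3314 and 2234 with the likelihood ratio test, 481, 1905 and 1299 without a filter, and 1078, 4441 and 2283 with the replicate block in Control and HFD+Mino. With the GC trend removed they were 504, 1550 and 653. For HFD+Mino vs HFD 1369 genes were called with the replicate block in all samples and 463 with the length trend removed, and models of 6 samples called 617 between HFD and Control and 406 between HFD+Mino and HFD. In HFD+Mino vs Control DESeq2 called 271, the likelihood ratio test 106, the fit without a filter 1 and the block 551. Leaving out 1 sample gave 59 to 550, 29 to 3815, 0 to 1120 and 3 to 2396 genes in the 4 tests, highest without HFD+Mino replicate 3. Without Control replicates 1 and 2 the count in HFD vs Control was 180 and 91, and without HFD replicates 1 to 3 it was 59, 73 and 73. In HFD+Mino vs HFD 148 genes were called when Control replicate 2 was dropped, 54, 59 and 29 without HFD replicates 1 to 3, and 105 or 338 with HFD+Mino replicate 1 or 2 dropped. The 3-way test gave 67 when Control replicate 2 was dropped, 10, 14 and 3 without HFD replicates 1 to 3, and 138 without HFD+Mino replicate 1. Of the list genes, the calls between HFD and Control numbered 6 (FDR under 0.05), 7 (DESeq2), 5 (likelihood ratio test), 3 (no filter, a mean count of at least 50, thinned libraries, the block in all samples, or no length trend), 8 (the block in Control and HFD+Mino) and 4 (no GC trend, or 6 samples), and those between HFD+Mino and HFD 22, 17 and 15 (the first 3 settings in the same order), 9 (no filter, or no GC trend), 8 (the block in all samples) and 21 (the block in Control and HFD+Mino), with 0 to 4 and 0 to 20 when 1 sample was left out.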
